A study of Mus musculus with 8 samples.

Results

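The secreted signals and antibacterial proteins examined here are 10 genes taken by symbol: the cytokines Il33 and Tslp, the CXC chemokines Cxcl1, Cxcl2, Cxcl5, Cxcl15 and Cxcl17, the lysozymes Lyz1 and Lyz2, and the lipocalin Lcn2. All 10 were on the array, with 13 of its 62976 spots and among 24568 named genes. Il33, Lyz2 and Lcn2 had 2 spots each and the other 7 genes had 1. RNA came from alveolar epithelial cells sorted from embryonic mouse lungs: AECII, the cuboidal cells that make surfactant, and AECI, the flat cells through which gas is exchanged. The mutant groups came from lungs in which signalling through Fgfr2b, the epithelial FGF receptor, was inhibited in vivo, and the window given for this is E16.5 to E18.5. There were 2 arrays in each of 4 groups: mutant AECII, WT AECII, mutant AECI and WT AECI. The sources used here do not give how the signal was inhibited, the strain, the gates of the sort, the sex of the embryos or any pooling. The labels call the arrays of a group biological replicates, and the p-values measure the spread between those arrays.

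IL-33 and TSLP are alarmins, cytokines that barrier epithelia release and that act on innate and adaptive lymphoid cells of type 2 immunity. Cxcl1, Cxcl2, Cxcl5 and Cxcl15 are chemokines of the ELR class, which attract neutrophils; Cxcl15, also called lungkine, is known for its restriction to lung epithelium in the mouse. Lysozymes cleave the bacterial cell wall, and lipocalin 2 starves bacteria of iron by binding their siderophores. Lysozyme is stored with surfactant in AECII, and Lyz2 is also a gene of macrophages and granulocytes.

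Values are log2 signals on a scale shared by all arrays, where the median spot of each array was 5.01, the upper quartile 8.06 and the brightest spot 15.99. A spot's level cannot be set against that of another spot, so each gene is compared only with itself across arrays. The labels of the 2 populations were checked on marker genes. The 12 AECII markers averaged 13.60 to 13.65 in mutant AECII and 13.67 to 13.68 in WT AECII, against 10.89 to 10.99 in mutant AECI and 11.57 to 11.75 in WT AECI. The 12 AECI markers averaged 10.44 to 10.94 in mutant AECII and 9.43 to 9.69 in WT AECII, against 13.08 to 13.10 in mutant AECI and 12.89 to 12.98 in WT AECI. The AECII arrays also carried airway genes: Scgb1a1, the club cell secretoglobin, stood at 15.78 and 15.75 in mutant AECII and 15.90 and 15.92 in WT AECII, against 7.67 and 9.62 in mutant AECI and 9.54 and 8.89 in WT AECI. The first WT AECI array stood apart from its replicate, with Krt5, a keratin of stratified and basal epithelium, at 12.30 against 4.77. All mutant arrays were low for Xist (3.50 to 5.14, against 12.44 to 13.17 in WT) and higher for the Y-linked gene Uty (6.71 to 7.47, against 2.72 to 3.24 in WT), so genotype and the sex of the embryos cannot be told apart.

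**Figure D1:**
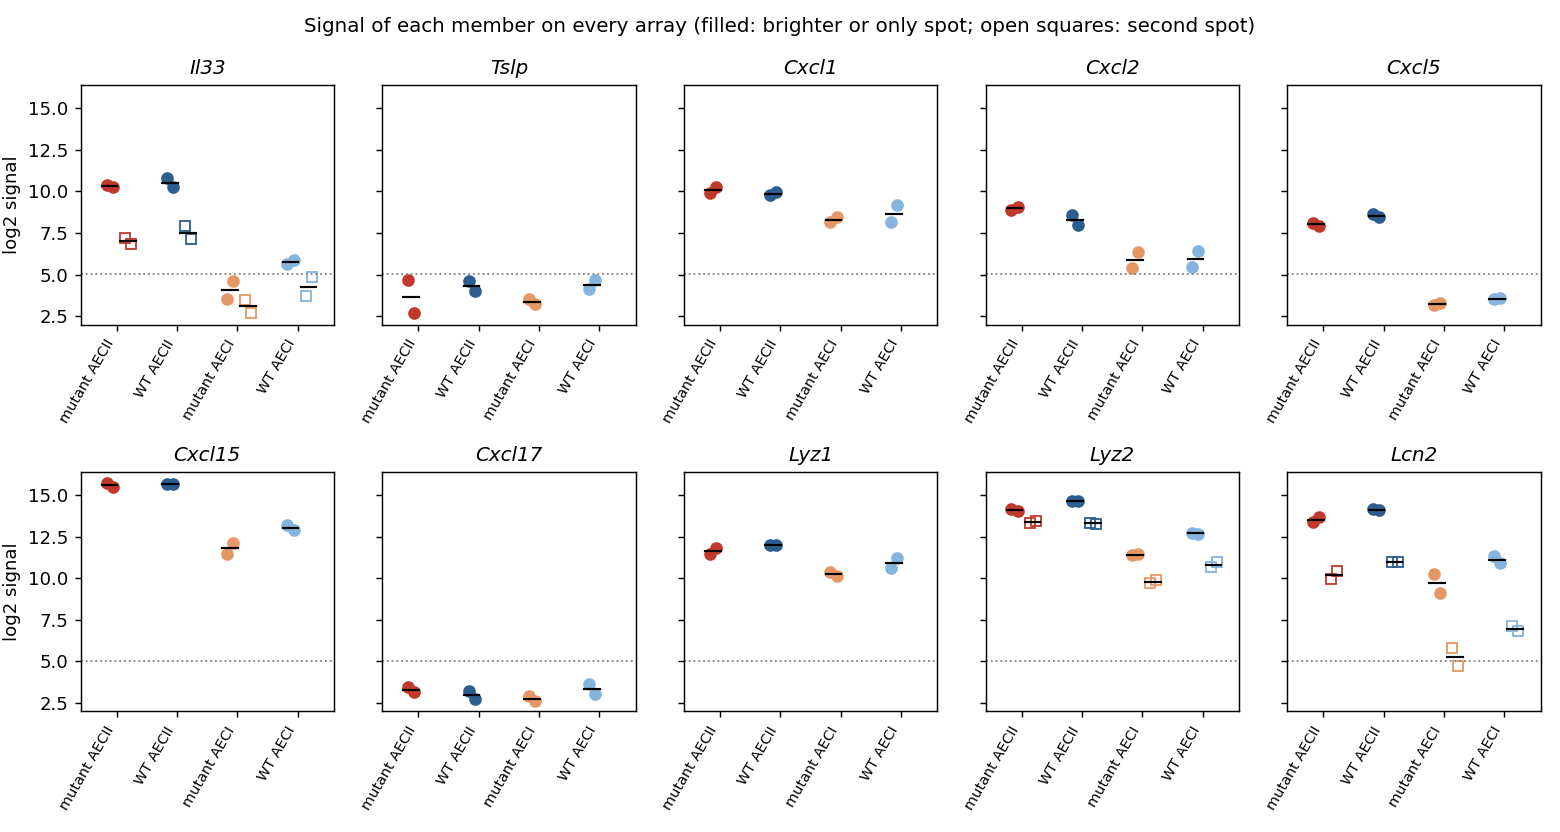
Log2 signal (vertical axis) of the 10 genes on each of the 8 arrays, by group (horizontal axis: mutant AECII, WT AECII, mutant AECI, WT AECI). Filled points are the only or the brighter spot of a gene and open squares the second spot of Il33, Lyz2 and Lcn2. Black bars are the group mean of each spot, and the dotted line is the array median of 5.01. For 8 genes both AECII arrays lie above both AECI arrays in each genotype, and Tslp and Cxcl17 stay near or below the dotted line.

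Of the 10 genes, 8 were higher in AECII than in AECI in mutant lungs and 6 in WT lungs, and none was lower in either. Among all genes tested, 4.87% were higher in mutant AECII than in mutant AECI and 4.14% were higher in WT AECII than in WT AECI (limma, adjusted p under 0.05). The median log2 difference between AECII and AECI over the 10 genes was 2.89 in mutant lungs and 2.13 in WT lungs, while that over all genes was -0.02 and 0.00 in these comparisons. Both arrays of mutant AECII lay above both arrays of mutant AECI for 9 of the 10 genes, against 26.5% of all genes, and the same held between WT AECII and WT AECI for 8 of the 10, against 25.6% of all genes. In sorted bulk RNA, a change in the share of expressing cells and a change in RNA per cell cannot be told apart. The club and ciliated airway markers moved with these differences. The 8 club and secretory markers averaged 10.10 to 10.32 in mutant AECII and 10.38 to 10.71 in WT AECII, against 7.53 to 7.90 in mutant AECI and 7.53 to 8.09 in WT AECI. The 8 ciliated markers averaged 9.41 to 10.01 in mutant AECII and 9.06 to 9.79 in WT AECII, against 5.32 to 5.84 in mutant AECI and 4.63 to 4.76 in WT AECI. Their median difference between AECII and AECI was 4.10 in mutant lungs and 4.80 in WT lungs. That of the 12 AECII markers was smaller, at 2.72 and 1.98. The part of the airway markers in the result was not tested.

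Il33 was higher in AECII on both of its spots. Its brighter spot read 10.36 and 10.28 in mutant AECII and 10.80 and 10.25 in WT AECII, against 3.53 and 4.59 in mutant AECI and 5.66 and 5.85 in WT AECI. The AECII arrays lay together whatever their genotype, both mutant AECI arrays were below the array median, and both WT AECI arrays were just above it. The log2 difference between AECII and AECI was 6.26 ± 0.40 (SE; 95% CI 5.31 to 7.21, limma adjusted p = 0.00105) in mutant lungs and 4.77 ± 0.40 (3.82 to 5.72, adjusted p = 0.00191) in WT lungs. The second, dimmer Il33 spot had the same order, with 7.21 and 6.82 in mutant AECII and 7.90 and 7.14 in WT AECII, against 3.49 and 2.71 in mutant AECI and 3.71 and 4.85 in WT AECI. Its differences were smaller, 3.91 in mutant lungs and 3.24 in WT lungs, and passed the threshold too (limma adjusted p = 0.00689 and 0.0132).

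Tslp, the other alarmin, read 4.66 and 2.70 in mutant AECII and 4.61 and 4.04 in WT AECII, against 3.54 and 3.23 in mutant AECI and 4.12 and 4.66 in WT AECI. All 8 values were below the array median, and AECII and AECI overlapped in both genotypes. The difference between AECII and AECI was 0.30 in mutant lungs (95% CI -1.17 to 1.77, limma adjusted p = 0.842) and -0.06 in WT lungs (-1.53 to 1.41, adjusted p = 0.977), intervals that leave room for changes of more than 2-fold either way. With no detection limit given, such dim values cannot be told from background.

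The receptors that receive these signals were examined from a list of 9, of which 8 were measured. The one not measured was Il1rl1, the chain of the IL-33 receptor that binds IL-33. In AECII against AECI, 1 of 8 was higher in mutant lungs and 2 of 8 in WT lungs. Il1rap, the shared subunit of the IL-33 receptor, read 8.25 and 8.57 in mutant AECII and 8.52 and 9.02 in WT AECII, against 7.54 and 7.24 in mutant AECI and 6.88 and 7.44 in WT AECI. The difference was 1.02 in mutant lungs (limma adjusted p = 0.127) and 1.61 in WT lungs (adjusted p = 0.0328). Gpr35, an orphan-type receptor that has been proposed for Cxcl17, was higher in AECII of both genotypes, by 3.86 in mutant lungs (adjusted p = 0.00786) and 2.42 in WT lungs (adjusted p = 0.0433). Neither Crlf2, the TSLP receptor chain, nor Cxcr2, the neutrophil receptor for ELR chemokines, passed the test in these comparisons.

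The 4 ELR chemokines were all higher in AECII than in AECI of mutant lungs, and 3 of them in WT lungs. Cxcl5 had a split in both genotypes: it read 8.10 and 7.95 in mutant AECII and 8.63 and 8.47 in WT AECII, against 3.16 and 3.32 in mutant AECI and 3.52 and 3.61 in WT AECI. All 4 AECI values lay below the array median and all 4 AECII values near the upper quartile. The difference between AECII and AECI was 4.79 ± 0.24 in mutant lungs (95% CI 4.21 to 5.36, limma adjusted p = 0.000906) and 4.98 ± 0.24 in WT lungs (4.41 to 5.56, adjusted p = 0.0012), on the scale of the signals. The AECI signal of Cxcl5 could not be told from background, so these values and intervals describe the signals and may lie below the true differences. The same holds for Il33 in mutant lungs.

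Cxcl15, the lung-restricted chemokine, read 15.71 and 15.47 in mutant AECII and 15.64 and 15.67 in WT AECII, against 11.48 and 12.11 in mutant AECI and 13.20 and 12.89 in WT AECI. Its AECII values lay close to the brightest spot on the array, where the scale leaves little room, and mutant AECI lay below WT AECI on both arrays. The difference between AECII and AECI was 3.80 ± 0.30 in mutant lungs (95% CI 3.07 to 4.52, limma adjusted p = 0.00156) and 2.61 ± 0.30 in WT lungs (1.89 to 3.34, adjusted p = 0.00495).

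Cxcl1 and Cxcl2, the classical neutrophil chemokines, had calls that rested on few arrays. Cxcl2 read 8.86 and 9.09 in mutant AECII and 8.58 and 8.01 in WT AECII, against 5.41 and 6.35 in mutant AECI and 5.45 and 6.44 in WT AECI. The difference was 3.10 ± 0.46 in mutant lungs (95% CI 1.99 to 4.20, limma adjusted p = 0.0103) and 2.35 ± 0.46 in WT lungs (1.25 to 3.45, adjusted p = 0.0293). The call in WT lungs rested on single arrays: it was lost without either WT AECII array (adjusted p = 0.153 and 0.0937), without the first WT AECI array (0.107), which is the keratin-bright one, and without either mutant AECII array (0.0608 each). In mutant lungs it was lost without either mutant AECII array (0.0567 and 0.0768) or the first mutant AECI array (0.0575).

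Cxcl1 read 9.91 and 10.27 in mutant AECII and 9.77 and 9.97 in WT AECII, against 8.15 and 8.44 in mutant AECI and 8.14 and 9.18 in WT AECI. All 8 Cxcl1 values were above the upper quartile of the array, and both WT AECI arrays lay below the AECII arrays. The difference was 1.80 ± 0.39 in mutant lungs (95% CI 0.88 to 2.71, limma adjusted p = 0.0372) and 1.21 ± 0.39 in WT lungs (0.29 to 2.13, adjusted p = 0.132). The call in mutant lungs was lost without any 1 of the mutant or WT AECII arrays or of the mutant AECI arrays (adjusted p between 0.0717 and 0.192). Cxcl17, a chemokine of mucosal surfaces outside the ELR class, was dim, with 3.44 and 3.17 in mutant AECII and 3.21 and 2.76 in WT AECII, against 2.92 and 2.62 in mutant AECI and 3.65 and 3.06 in WT AECI. Its differences were 0.54 in mutant lungs (95% CI -0.24 to 1.31, adjusted p = 0.411) and -0.37 in WT lungs (-1.14 to 0.40, adjusted p = 0.609), and no array showed it above the median.

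**Figure D2:**
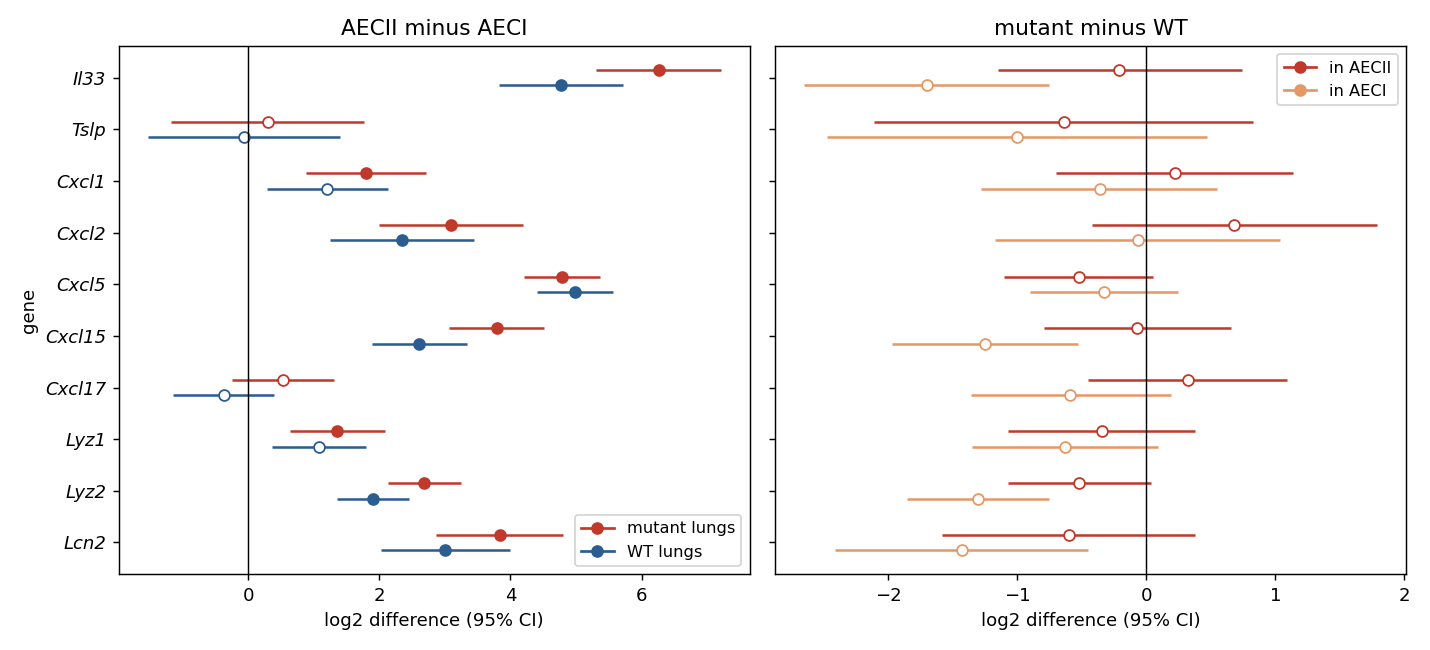
Log2 differences (horizontal axis) of the 10 genes with 95% confidence intervals from limma. The left panel shows AECII minus AECI in mutant and in WT lungs and the right panel mutant minus WT in AECII and in AECI; filled points passed an adjusted p of 0.05, which 8 genes did in mutant lungs, 6 in WT lungs and none in the right panel, where all 10 AECI points lie below 0.

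The ELR chemokine genes are neighbours on mouse chromosome 5, where 7 genes follow each other in the order Cxcl5, Ppbp, Pf4, Cxcl3, Cxcl15, Cxcl1 and Cxcl2. Of the 3 that were not among the 10 genes, Cxcl3, another ELR chemokine, read 6.95 and 6.08 in mutant AECII and 7.59 and 7.70 in WT AECII, against 2.35 and 3.49 in mutant AECI and 2.87 and 3.86 in WT AECI. It was higher in AECII by 3.59 in mutant lungs (limma adjusted p = 0.00933) and by 4.28 in WT lungs (adjusted p = 0.00577). Pf4, platelet factor 4, read 8.0 and 8.51 in mutant AECII and 8.98 and 8.69 in WT AECII, against 2.63 and 4.48 in mutant AECI and 4.70 and 6.26 in WT AECI. It was higher in AECII by 4.71 in mutant lungs (adjusted p = 0.0105) and by 3.35 in WT lungs (adjusted p = 0.0377). All AECI values of Cxcl3 and both mutant AECI values of Pf4 lay below the array median, so the size of the differences that use them is uncertain. Ppbp, the platelet basic protein gene between Cxcl5 and Pf4, was the exception: it lay between 2.49 and 3.63 on every array and did not pass the test (adjusted p = 0.503 in mutant lungs and 0.648 in WT lungs). Of the 7 neighbours, 6 were thus higher in AECII in mutant lungs, counting Cxcl1, whose call was lost without single arrays, and 5 in WT lungs. Pf4 and Ppbp were chosen for their position after other values were known.

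**Figure D3:**
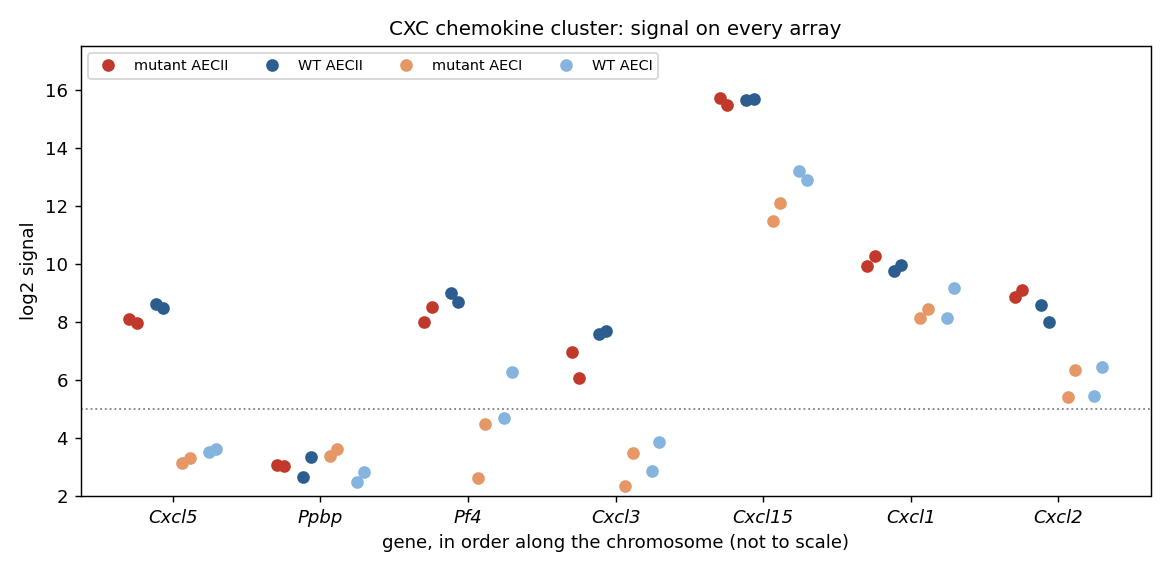
Log2 signal (vertical axis) of the 7 neighbouring CXC chemokine genes in their order along chromosome 5 (horizontal axis, not to scale); each point is 1 array and the colours mark the 4 groups. The AECII arrays lie above the AECI arrays for every gene but Ppbp, which lies between 2.49 and 3.63 in all groups.

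The stretches of 250 bases before the annotated starts (RefSeq, GRCm38.p6) are given 5′ to 3′ on the strand of the gene. They are shown for Cxcl1, Cxcl2 and Cxcl15, because these neighbours share a direction between the cell types. Windows were read only for the 10 genes, so those of Cxcl3, Pf4 and Ppbp were not looked up. A window was read for 7 of the 10 genes. None was read for Tslp, Cxcl5 and Cxcl17, which does not show that they lack an annotated start. Capitals mark matches on either strand to the NF-kB consensus motif, named by its kappaB consensus, or to the TATA box TATAAA. Cxcl1 is at chr5:90890995-90891244, Cxcl2 at chr5:90903649-90903898 and Cxcl15 at chr5:90794284-90794533, all on the plus strand.
Cxcl1: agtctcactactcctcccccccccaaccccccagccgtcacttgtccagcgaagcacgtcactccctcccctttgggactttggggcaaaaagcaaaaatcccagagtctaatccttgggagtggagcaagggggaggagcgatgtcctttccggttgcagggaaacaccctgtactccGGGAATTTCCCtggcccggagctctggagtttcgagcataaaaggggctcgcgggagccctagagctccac
Cxcl2: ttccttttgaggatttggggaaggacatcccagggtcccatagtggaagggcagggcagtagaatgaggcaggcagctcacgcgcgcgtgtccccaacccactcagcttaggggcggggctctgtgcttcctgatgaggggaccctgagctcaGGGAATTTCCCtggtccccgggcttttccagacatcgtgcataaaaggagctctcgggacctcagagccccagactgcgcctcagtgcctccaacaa
Cxcl15: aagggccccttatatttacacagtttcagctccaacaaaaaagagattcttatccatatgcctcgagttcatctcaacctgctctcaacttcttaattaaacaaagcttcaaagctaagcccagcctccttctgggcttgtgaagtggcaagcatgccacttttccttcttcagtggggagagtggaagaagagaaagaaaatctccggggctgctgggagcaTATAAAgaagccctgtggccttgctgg
A kappaB match lay 71 to 61 bases before the start of Cxcl1 and 97 to 87 bases before that of Cxcl2, each read on both strands; 7.25% of 32851 promoter windows of this length held one. Cxcl15 had no kappaB match in this window and had TATAAA 27 to 22 bases before its start, a motif found in 12.4% of windows. Without gaps and lined up at their starts, 25.6% of bases were identical between the windows of Cxcl1 and Cxcl2. Their kappaB matches lie at unlike distances from the start, so this count cannot show how alike the sequences are. These matches describe the letters only and were not tested for binding.

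The 26 genes of the NF-kB pathway and its feedback were not split between the cell types in the way of the chemokines. Of these, 1 was higher in mutant AECII than in mutant AECI and none was lower, and between WT AECII and WT AECI none passed the test in either direction. Their median difference was -0.10 in mutant lungs and -0.07 in WT lungs. The one gene called was Irak1, a kinase of the IL-1 and Toll-like receptor pathway, which was higher in AECII by 1.18 in mutant lungs (limma adjusted p = 0.0423).

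Lyz2 and Lcn2 were higher in AECII than in AECI of both genotypes, and Lyz1 in mutant lungs. Lyz2, whose product is the lysozyme long used as an AECII marker, read 14.15 and 14.05 in mutant AECII and 14.61 and 14.62 in WT AECII, against 11.39 and 11.43 in mutant AECI and 12.74 and 12.68 in WT AECI. The 4 groups did not overlap and replicates lay close together. The difference between AECII and AECI was 2.69 ± 0.23 in mutant lungs (95% CI 2.14 to 3.24, limma adjusted p = 0.00181) and 1.90 ± 0.23 in WT lungs (1.35 to 2.45, adjusted p = 0.00577). On its second spot Lyz2 read 13.30 and 13.42 in mutant AECII and 13.34 and 13.25 in WT AECII, against 9.70 and 9.89 in mutant AECI and 10.67 and 10.97 in WT AECI. The split was wider there, at 3.57 in mutant lungs (adjusted p = 0.00193) and 2.48 in WT lungs (adjusted p = 0.00411).

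Lyz1, the lysozyme best known from intestinal Paneth cells, read 11.45 and 11.81 in mutant AECII and 11.97 and 11.98 in WT AECII, against 10.39 and 10.15 in mutant AECI and 10.60 and 11.19 in WT AECI. Its difference between AECII and AECI was 1.36 ± 0.30 in mutant lungs (95% CI 0.64 to 2.09, limma adjusted p = 0.0418) and 1.08 ± 0.30 in WT lungs (0.36 to 1.80, adjusted p = 0.0922). The call in mutant lungs was lost without any 1 of the 4 AECII arrays or of the 2 mutant AECI arrays (adjusted p between 0.0809 and 0.214). Lyz1 and Lyz2 are near-identical copies that lie next to each other, with 0 genes between them, so part of the signal on a Lyz1 spot may come from Lyz2 RNA.

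The windows before the starts of both lysozyme genes (RefSeq, GRCm38.p6, minus strand, given 5′ to 3′ on the strand of the gene) are shown because they display how close these neighbours are. Lyz1 is at chr10:117292869-117293118 and Lyz2 at chr10:117282273-117282522, and capitals mark a match to TTGCNNAA, a form of the C/EBP motif, on either strand.
Lyz1: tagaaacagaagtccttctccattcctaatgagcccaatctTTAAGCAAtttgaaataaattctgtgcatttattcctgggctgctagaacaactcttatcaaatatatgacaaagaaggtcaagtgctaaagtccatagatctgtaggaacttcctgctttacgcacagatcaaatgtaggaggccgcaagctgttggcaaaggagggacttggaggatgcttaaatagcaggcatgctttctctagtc
Lyz2: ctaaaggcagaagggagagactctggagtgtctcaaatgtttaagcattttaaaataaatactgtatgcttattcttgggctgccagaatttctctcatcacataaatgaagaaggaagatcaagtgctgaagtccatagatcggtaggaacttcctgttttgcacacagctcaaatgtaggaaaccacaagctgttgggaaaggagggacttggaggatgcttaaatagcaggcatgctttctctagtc
Of the 250 bases, 60.8% were identical without gaps, and the last 50 before the start were the same in both. TTGCNNAA lay 209 to 202 bases before the start of Lyz1 on the opposite strand, and 9.56% of windows held it. Lyz2 was the one window of 8 with none of the 3 motifs searched.

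Lcn2 read 13.38 and 13.66 in mutant AECII and 14.14 and 14.11 in WT AECII, against 10.27 and 9.10 in mutant AECI and 11.31 and 10.92 in WT AECI. The 4 groups did not overlap, and the mutant AECI arrays were the farthest apart of any pair. The difference between AECII and AECI was 3.84 ± 0.41 in mutant lungs (95% CI 2.86 to 4.81, limma adjusted p = 0.00336) and 3.01 ± 0.41 in WT lungs (2.03 to 3.99, adjusted p = 0.00855), and without either WT AECII array the WT call was lost (0.057 and 0.0601). The second Lcn2 spot, with 9.95 and 10.44 in mutant AECII and 10.98 and 10.99 in WT AECII, against 5.82 and 4.73 in mutant AECI and 7.10 and 6.82 in WT AECI, gave 4.92 in mutant lungs (adjusted p = 0.00211) and 4.02 in WT lungs (adjusted p = 0.00368).

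Other secreted host defence proteins followed the direction of Lyz2 and Lcn2 in part. Of 22, 11 were higher in mutant AECII than in mutant AECI and 10 in WT AECII than in WT AECI, none was lower, and their medians were 1.54 and 1.27. Slpi, an inhibitor of neutrophil elastase, was higher in AECII by 4.55 in mutant lungs (limma adjusted p = 0.00617) and 5.40 in WT lungs (adjusted p = 0.00404). Hp, haptoglobin, which binds free haemoglobin, was higher by 4.68 (adjusted p = 0.00113) and 4.05 (adjusted p = 0.00173) in these comparisons, and Chil1, a chitinase-like protein, by 3.89 (adjusted p = 0.00114) and 2.75 (adjusted p = 0.00298). Sftpa1, surfactant protein A, a collectin that binds microbes and that is also among the AECII markers, was higher by 3.07 (adjusted p = 0.0021) and 1.95 (adjusted p = 0.0101).

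Lyz2 and, in granulocytes, Lcn2 are also expressed by leukocytes, so leukocyte markers were read beside them. The 14 macrophage and monocyte markers averaged 6.36 to 6.37 in mutant AECII and 6.28 to 6.33 in WT AECII, against 5.96 to 6.08 in mutant AECI and 6.26 to 6.35 in WT AECI, and 6 of them lay below the array median on every array. Of the macrophage markers, Adgre1 lay between 2.53 and 4.87 and C1qa between 2.82 and 4.37. Others were above the array median on every array: C1qb lay between 7.1 and 8.2 and Cd68 between 7.77 and 9.53. Cd14 read 7.49 to 8.47 in AECII and 5.26 to 6.76 in AECI. Its difference was 1.97 in mutant lungs (limma adjusted p = 0.0989) and 1.87 in WT lungs (adjusted p = 0.12). The 12 granulocyte markers averaged 4.78 to 4.82 in mutant AECII and 4.89 to 5.03 in WT AECII, against 4.79 to 4.90 in mutant AECI and 4.83 to 5.24 in WT AECI. Among them S100a8 lay between 2.58 and 4.30 and Ly6g between 2.43 and 3.88. Between AECII and AECI, 1 of the 14 and 1 of the 12 were higher in each genotype: Ly6c2, a monocyte surface antigen, and Retnlg, a resistin-like protein of granulocytes. Ly6c2 was higher in AECII by 3.66 in mutant lungs and 2.52 in WT lungs, and Retnlg by 2.39 and 3.80, and their part in the result was not tested. Csf1r, Itgam and Csf3r were bright on every array (12.59 to 15.12) with no difference called, and their source was not tested. These, Adgre1, C1qa, C1qb, Cd68, Cd14 and Ly6g were picked after values were seen.

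No gene of the 10 passed the threshold between mutant AECII and WT AECII, where 0.0122% of all genes passed it (limma, adjusted p under 0.05). Xist and Uty, which follow the sex of the embryos, were among those that passed (limma adjusted p = 0.0233 each). At an unadjusted p under 0.05 there was again none of the 10, against 4.41% of all genes. The differences between mutant AECII and WT AECII lay between -0.64 for Tslp and 0.68 for Cxcl2, with a median of -0.28 and 3 of 10 above 0 (49.6% of all genes), and the adjusted p was 0.998 for each. The intervals that came nearest to leaving out 0 were those of Lyz2, at -0.52 (95% CI -1.07 to 0.04), and Cxcl5, at -0.52 (-1.10 to 0.05). Both mutant AECII arrays lay below both WT AECII arrays for 4 genes, Cxcl5, Lyz1, Lyz2 and Lcn2, against 18.2% of all genes, and above them for 1, Cxcl2, against 17.6%. On its second spot Lyz2 differed by 0.07, so its direction depends on the spot. Il33 differed by -0.21 (95% CI -1.15 to 0.74), an interval that spans 0. In the same comparison all 12 AECI markers were above 0, with a median of 1.16, and the 26 NF-kB genes had a median of 0.22.

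In AECI all 10 genes were lower in mutant than in WT lungs by their point values, with a median of -0.81 against 0.00 over all genes (49.9% of which were above 0), but none passed the threshold, which 0.0163% of all genes did (limma, adjusted p under 0.05). Xist and Uty were again among the genes that passed (limma adjusted p = 0.0162 and 0.0247). At an unadjusted p under 0.05, 4 of the 10 were lower, against 4.58% of all genes. Lyz2 differed by -1.30 ± 0.23 (SE; 95% CI -1.85 to -0.75, limma adjusted p = 0.31) and by -1.02 on its second spot (adjusted p = 0.46). Il33 differed by -1.70 ± 0.40 (-2.65 to -0.75, adjusted p = 0.422) and by -1.18 on its second spot (adjusted p = 0.645). Cxcl15 differed by -1.25 ± 0.30 (-1.97 to -0.53, adjusted p = 0.43). Lcn2 differed by -1.43 ± 0.41 (-2.41 to -0.45, adjusted p = 0.502) and by -1.69 on its second spot (adjusted p = 0.44). Single arrays moved the Lcn2 difference: it was -2.02 without the first mutant AECI array and -0.84 without the second. That of Il33 was -1.17 without the first mutant AECI array and -2.23 without the second.

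For 8 of the 10 genes both mutant AECI arrays lay below both WT AECI arrays, against 17.8% of all genes; Cxcl1 and Cxcl2 were the ones that overlapped. Of these 8, Tslp and Cxcl17 were below the array median on every array and Cxcl5 on all AECI arrays, so the order of their AECI values could not be told from background. Il33 lay below the median on both mutant AECI arrays (3.53 and 4.59) and, on its second spot, on all AECI arrays (2.71 to 4.85). The size of its differences in AECI is therefore uncertain on both spots. Lyz1 differed by -0.63 (limma adjusted p = 0.686), Cxcl5 by -0.33 (0.8), Cxcl1 by -0.36 (0.868) and Cxcl2 by -0.06 (0.987). With a prior variance that follows the signal and is robust to outliers, Cxcl15 and Lyz2 passed the threshold in this comparison (adjusted p = 0.0425 and 0.00376).

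Markers of several cell types also shifted in AECI by their point values, not all in the direction of the 10 genes. Of the 12 AECII markers, 1 was above 0 in mutant AECI against WT AECI, with a median of -0.73, and their mean was 10.89 to 10.99 in mutant AECI and 11.57 to 11.75 in WT AECI. The 22 other host defence proteins did not move as a group, with 10 above 0 and a median of -0.08. Of those named above, Hp differed by -0.86, Chil1 by -0.97 and Sftpa1 by -1.09, and Slpi by 0.27. None of these passed the threshold. The 8 club and secretory markers had a median of -0.25, with 3 above 0. The 8 ciliated markers had a median of 1.05, with 6 above 0, and averaged 5.32 to 5.84 in mutant AECI and 4.63 to 4.76 in WT AECI. The 5 basal markers had a median of -1.49, with 1 above 0, and averaged 8.33 to 8.84 in mutant AECI and 8.12 to 12.05 in WT AECI, the upper value being the keratin-bright array. The macrophage markers had a median of -0.07 and the granulocyte markers of -0.37. Whether the lower values of Il33, Cxcl15, Lyz2 and Lcn2 go with the share of AECII, airway or basal RNA in the AECI gate was not tested.

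**Figure D4:**
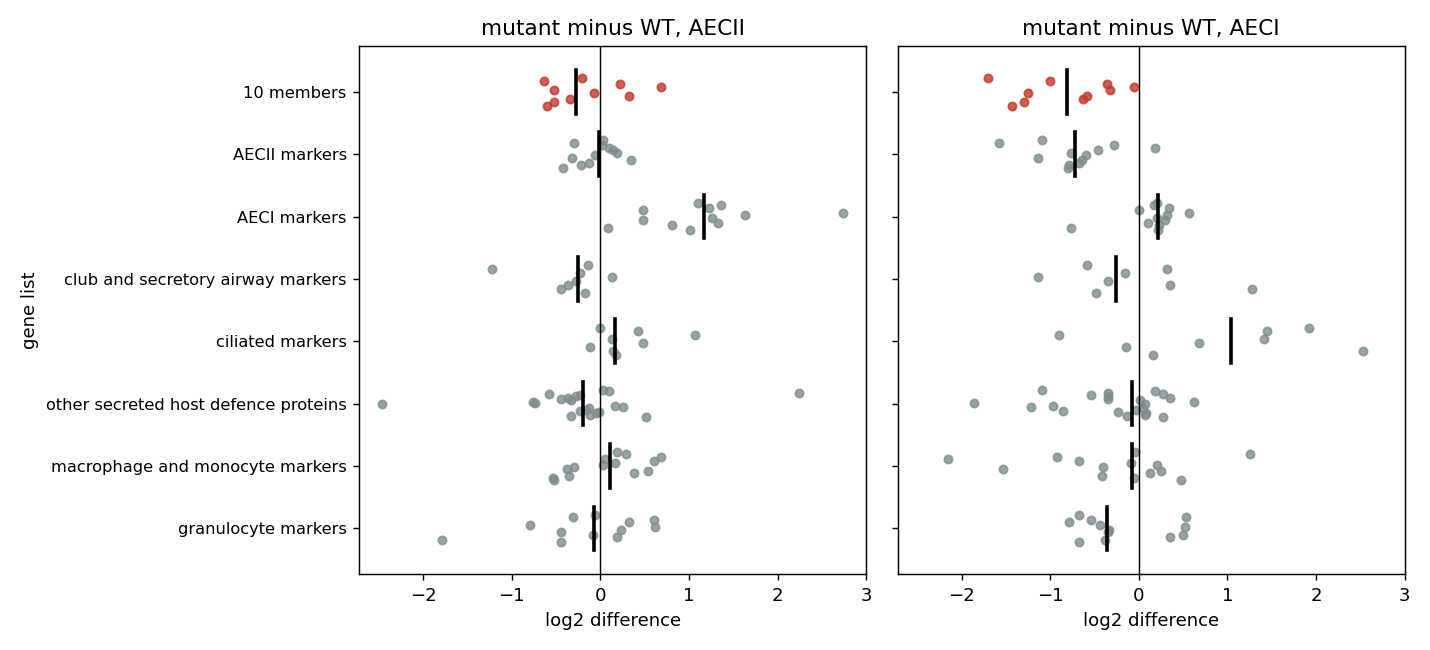
Log2 difference between mutant and WT (horizontal axis) in AECII (left panel) and in AECI (right panel) for the genes of 8 lists; each point is 1 gene and each bar the median of its list. In AECI the 10 genes have a median of -0.81 and the AECII markers of -0.73, while in AECII the AECI markers have a median of 1.16.

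The mutant effect was also compared between the cell types. None of the 10 genes had a difference of effects past the threshold, nor had any gene on the array (0%, limma, adjusted p under 0.05), so an effect particular to AECI was not shown. The difference of effects, AECII minus AECI, was above 0 for 9 of the 10 genes (50.7% of all genes) with a median of 0.77, and 3 of the 10 had an unadjusted p under 0.05, against 4.71% of all genes. These were Il33 at 1.49 ± 0.57 (95% CI 0.15 to 2.83), Cxcl15 at 1.18 ± 0.43 and Lyz2 at 0.79 ± 0.33 (SE), each with an adjusted p of 0.999. The AECII values of Cxcl15 (15.47 to 15.71) lay close to the brightest spot of 15.99, where the scale leaves little room. The part of this in its difference of effects was not tested. The Il33 values in mutant AECI were below the array median. On the second spots the difference of effects was 0.68 for Il33 and 1.09 for Lyz2. For the brighter Il33 spot it was 0.96 without the first mutant AECI array and 2.02 without the second. This comparison and those between the cell types use the same arrays, so the wider split between AECII and AECI in mutant lungs is the same measurement.

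Among other cytokines, 4 of 16 were higher in AECII than in AECI of mutant lungs and 3 of 16 in WT lungs. Csf2, which encodes GM-CSF, the growth factor that alveolar macrophages depend on, had a pattern close to that of Il33: it read 9.49 and 9.50 in mutant AECII and 9.23 and 9.08 in WT AECII, against 2.83 and 4.01 in mutant AECI and 5.49 and 5.30 in WT AECI. It was higher in AECII by 6.07 in mutant lungs (limma adjusted p = 0.0011) and by 3.76 in WT lungs (adjusted p = 0.00371), and differed by -1.97 between mutant and WT AECI (adjusted p = 0.36). Both Csf2 values in mutant AECI were below the array median, so the size of the differences that use them is uncertain. Il34, a ligand of the CSF1 receptor, was higher in AECII by 4.26 (adjusted p = 0.0134) in mutant lungs and 3.88 (0.0195) in WT lungs, and Il6, a cytokine of the acute phase, by 2.15 (0.0109) and 1.46 (0.0465). Of the 22 other chemokines, 1 was higher and 1 lower in mutant AECII than in mutant AECI, and 1 was higher and 2 were lower in WT AECII than in WT AECI. Cxcl16, a chemokine with a membrane-bound form, ran against the ELR chemokines, at -1.57 in mutant lungs (adjusted p = 0.0386) and -2.27 in WT lungs (adjusted p = 0.0113), and Cx3cl1, which also has a membrane-bound form, at -2.09 in WT lungs (adjusted p = 0.0456).

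The genes whose pattern was most like that of Il33 were sought among 13811 genes by Pearson's r over the 8 arrays. They were Dusp4 (r = 0.999), a phosphatase of MAP kinases, Rab27b (0.998), a GTPase of secretory vesicles, Slc26a9 (0.997), a chloride transporter, Acot7 (0.997), an acyl-CoA thioesterase, and Ddhd1 (0.996), a phospholipase. Dusp4 read 12.54 and 12.45 in mutant AECII and 12.82 and 12.59 in WT AECII, against 8.68 and 9.17 in mutant AECI and 10.02 and 9.98 in WT AECI, which is the order of groups that Il33 had. The 8 arrays share the split between the cell types, so r describes mainly that split.

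A window of Il33 is shown because both Il33 spots were higher in AECII in both genotypes. It is the one before the second annotated start (RefSeq, GRCm38.p6, chr19:29945540-29945789, plus strand), with TATAAA and TTGCNNAA matches in capitals.
Il33: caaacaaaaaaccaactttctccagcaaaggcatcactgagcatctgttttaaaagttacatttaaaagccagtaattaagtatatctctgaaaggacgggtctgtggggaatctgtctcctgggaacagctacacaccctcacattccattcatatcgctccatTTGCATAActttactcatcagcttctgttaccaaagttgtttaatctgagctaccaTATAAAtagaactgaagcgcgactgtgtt
TATAAA lay 29 to 24 bases and TTGCNNAA 85 to 78 bases before this start. No kappaB match lay in this window. The window before the first annotated start, not shown, held TATAAA 203 to 198 bases before that start and neither of the other motifs. The spots do not tell which start was used.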

How the data were processed

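RNA of sorted AECI and AECII was amplified, labelled with Cy5 and hybridised to 8 single-colour Agilent arrays. The authors deposited normalized log2 signals with identical quantiles on every array, which removes any change in total RNA. The submitters' processing notes name limma without a version. Background correction, spot filters and detection limits: not given in the sources used here. Precision is limited by having 2 arrays a group.

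The platform annotation gave 1 symbol for 43941 of 62976 spots, none for 19035 and several for 0. The accession of 33704 spots matched the RefSeq table of GRCm38.p6, which updated 1424 symbols, and 57 named spots with a missing value were left out. The spot with the highest mean stood for a gene, which left 24568 genes; no filter on dim spots was applied. Means of the 4 groups were fitted to all 8 arrays and tested with limma 3.58.1 under R 4.3.3 (lmFit and eBayes, two-sided, residual degrees of freedom 4, prior 2.87, Benjamini-Hochberg over all genes, threshold 0.05) in 5 comparisons. The fit was tested on simulated data. Promoter windows came from RefSeq tables. Tables used pandas 2.3.3 under Python 3.11.15 and plots matplotlib 3.10.9.

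The 10 genes and all lists were chosen with earlier results of these data known. Text names all 10, up to 4 genes per other list with the smallest unadjusted p, and the 5 genes most like Il33; some of those were named for their values, and the genes named outside this rule were chosen after their values were seen. Alternatives were another quantile normalization, median centring, other priors, filters on dim genes, other thresholds, all spots, 4 arrays alone, a replicate block and leaving out each array.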

Additional observations from a re-analysis of the deposited data

How the results depend on the processing

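Of 875 values of the 10 genes under alternatives, 862 kept their sign. Filters on dim genes, other priors, the replicate block, 4 arrays alone and leaving out arrays of other groups do not change a gene's difference. Many of the kept signs were therefore fixed in advance. The count of genes higher in AECII than in AECI lay between 5 and 8 in mutant lungs and between 4 and 6 in WT lungs when 1 array was left out, with 5 in mutant lungs without either mutant AECII array or the first mutant AECI array. Il33, Cxcl5, Cxcl15 and Lyz2 were called in both genotypes under every alternative run. Median centring moved the median of all genes by -0.17 between mutant AECII and AECI, called 6 of the 10 there (Cxcl1 adjusted p = 0.0539, Lyz1 0.0667), and changed the split of all calls to 988 higher and 928 lower, against 1197 and 720. Over the alternatives, genes higher in AECII numbered 385 to 1785 in mutant lungs (1197 as reported) and 304 to 1511 in WT lungs (1018), lowest without the second mutant AECII or WT AECII array and highest with the trended and robust prior. Between mutant and WT AECI median centring called none of the 10, while the trended and robust prior called 2 (Cxcl15 and Lyz2), beside 7 genes higher and 18 lower of all 24568, against 2 and 2 as reported.

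Between mutant and WT AECII, with 1 array left out, Tslp ranged from -1.62 to 0.34, Cxcl15 from -0.18 to 0.05 and Il33 from -0.48 to 0.07, and Lyz2 was 0.07 on its second spot. Between mutant and WT AECI, Cxcl1 ranged from -0.88 to 0.15 and Cxcl2 from -0.56 to 0.43, and Cxcl2 was 0.04 with median centring. Between AECII and AECI, Tslp ranged from -0.68 to 1.28 in mutant lungs and from -0.35 to 0.22 in WT lungs. The difference of effects ranged from -0.62 to 1.34 for Tslp and from -0.01 to 0.58 for Lyz1. The cause was not tested. The filters on dim genes left out Cxcl17 and, at 50%, Tslp.

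Over all genes, arrays of the same number did not pair: their deviations from the group means correlated between -0.069 and 0.028 over 6 pairs. Some mesenchymal markers did follow the number. Col3a1 read 9.04 then 4.06 in mutant AECII and 9.17 then 5.45 in WT AECII. In AECI the order was opposite, with 5.53 then 9.45 in mutant and 4.49 then 7.68 in WT. Col1a1, Col1a2, Pdgfra and Tcf21 had this order too, while Pdgfrb, Acta2 and Dcn did not. The part of this in the results was not tested. With the replicate number as a block, 7 of the 10 genes were higher in mutant AECII than in mutant AECI (Lyz1 adjusted p = 0.0669) and 6 in WT AECII than in WT AECI; no other call of the 10 genes changed.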
